A study of Capra hircus with 2 samples.

Results

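miR-101 was followed in the mammary gland of Laoshan dairy goats (Capra hircus) at 2 stages after birth, peak lactation at day 90 and late lactation at day 210. The tissue was taken by surgery from goats 4 years old in lactation number 3, and no treatment, transgene or sort was part of the design. At each stage the RNA of 5 tissues was pooled and sequenced as 1 small RNA library, so the stages had no replicate library and no test between them was possible. The authors deposited the reads of each distinct sequence, called a tag, without names. The members were the tags that contain nt 2 to 17 of the mature miR-101-3p strand, and they numbered 563 of the 659118 distinct tags of the series, with 390 at the peak stage and 330 at the late stage.

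A microRNA is cut from a hairpin transcript and loaded into an Argonaute protein, where the bases that follow its first nucleotide, the seed, choose the mRNAs that it represses. The place where a strand begins therefore sets its seed, while the place where it ends does not. miR-101 is known as a repressor of the histone methyltransferase EZH2 and of the prostaglandin synthase COX-2, and it has been studied in the mammary epithelium of the mouse. No mRNA was measured in these libraries. In the RefSeq gene table of the goat assembly ARS1.2 the gene MIR101 lies in no protein-coding gene, with JAK1 as the nearest protein-coding gene on one side and LOC108635646, then AK4, on the other. The deposited tags were not placed on a genome, so no position is given for them.

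No reference list of mature sequences was at hand. The strand was therefore found by its seed of 7 nt, ACAGTAC, which is known for miR-101-3p, and the rest was read from the most abundant tag with these letters at nt 2 to 8. That tag held 31023 reads at the peak stage and 8910 at the late stage. Of all reads with the seed at nt 2 to 8, 99.2% in both libraries were members, so few reads with the seed there lay outside the rule. Reads with the seed there numbered 80922 at the peak stage and 36447 at the late stage. The members held more, 109111 and 47878 reads, because they include other starts. The 16 nt that every member shares are acagtactgtgataac. The name of each microRNA given here rests on its seed.

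The 10 most abundant members were the same in both libraries, and they are shown because they hold the differences described here. Capitals mark nt 2 to 8 of each tag, which is the seed that the tag itself would present.
3p tag 1: tACAGTACtgtgataactgaag
3p tag 2: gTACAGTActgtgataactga
3p tag 3: tACAGTACtgtgataactga
3p tag 4: tACAGTACtgtgataactgaat
3p tag 5: tACAGTACtgtgataactgaa
3p tag 6: gTACAGTActgtgataactgaa
3p tag 7: tACAGTACtgtgataactgacc
3p tag 8: tACAGTACtgtgataactgaaa
3p tag 9: tACAGTACtgtgataactgaagt
3p tag 10: tACAGTACtgtgataactgaaga

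Tags 2 and 6 begin 1 nt earlier than the others, with an added g, and their capitals have moved by 1 base. Tags 1, 3 and 5 are the same sequence cut after nt 22, 20 and 21, counted from the mature start. Tags 4, 7 and 8 reach nt 22 with other last letters.

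The level of miR-101-3p was close in the pair of libraries. Summed over the members it was 109111 reads in peak lactation, or 5729 reads per 1000000 clean reads (RPM, 95% exact Poisson interval 5695 to 5764). In late lactation it was 47878 reads, or 6482 RPM (6424 to 6541). The late library was thus higher by 1.13-fold, a log2 ratio of 0.18 (95% exact binomial interval 0.16 to 0.19). All intervals given here hold counting error alone, because PCR copies of 1 molecule are counted as separate reads, and the pools hide the spread between goats. In bulk tissue, fewer cells of a type and less RNA per cell cannot be told apart. The clean reads numbered 19044002 at the peak stage and 7385833 at the late stage, so 1 read stood for 0.0525 and 0.135 RPM, and a count of 0 (up to 3 reads) allowed up to 0.158 and 0.406 RPM. miR-101-3p made up 0.573% of the clean reads at the peak stage and 0.648% at the late stage.

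To read this ratio against other small RNAs, all tags were grouped by nt 2 to 17 of their most abundant tag. Of the 3415 groups of at least 1 RPM in a library, 31.6% were at least 2-fold higher and 29.1% at least 2-fold lower in late lactation. Of the 445 groups of at least 100 RPM, 25.8% were at least 2-fold higher and 33.3% at least 2-fold lower, and their median log2 ratio was -0.39. miR-101-3p was among the 182 of these groups (40.9%) within 2-fold, and 31 groups had a ratio nearer to 1. Its rank by level was 16 at the peak stage and 16 at the late stage. The groups were not sorted into microRNAs and fragments of other RNAs, so they are not a count of microRNAs.

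**Figure D1:**
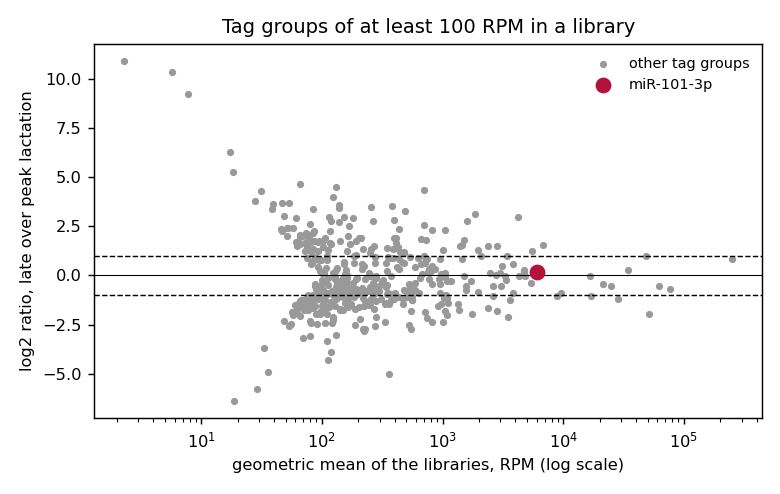
The log2 ratio of late over peak lactation (vertical axis) against the geometric mean level in RPM (log scale) of 441 other tag groups of at least 100 RPM with reads in both libraries (grey) and of miR-101-3p (red), with dashed lines at 2-fold. miR-101-3p lies near the zero line at 0.18, while groups of lower level spread widely on both sides, and 3 groups without a read in peak lactation are not drawn.

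In peak lactation the group just above miR-101-3p was that of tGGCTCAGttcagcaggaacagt at 6159 RPM, and the one just below was that of tGTAAACAtccttgactggaagc at 5616 RPM (capitals mark nt 2 to 8). Farther out on either side were the groups of gCGGGTGAtgcgaactggagtctgagt at 7259 RPM and cGCGACCTcagatcagacgt at 5238 RPM. All of these neighbours were lower in late lactation, with log2 ratios of -0.37, -1.24, -2.12 and -1.80. In late lactation the neighbours above were the groups of tGTAAACAtccccgactggaagc at 6936 RPM and aACAATGTaggtaagggaagtcgg at 8528 RPM. Those below were the groups of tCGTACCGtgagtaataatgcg at 6126 RPM and tTTGTTCGttcggctcgcgtga at 5416 RPM. The Poisson intervals of miR-101-3p did not overlap those of its nearest neighbours in either library. Equal rank in the libraries therefore came with different neighbours.

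The groups of at least 100 RPM whose log2 ratio was nearest to that of miR-101-3p were found by the distance between the ratios alone, over 2 libraries. They were led by aTGAGAGGtgtagaataagtggg (log2 ratio 0.19, 4413 and 5023 RPM), aCGAGAACtttgaaggcc (0.19, 703 and 801 RPM), tGGAGAGAaaggcagttcctga (0.20, 326 and 374 RPM), aAGAAGACcctgttgagc (0.21, 745 and 864 RPM) and cCTCAGTCagccttgtggatgt (0.24, 88.8 and 105 RPM). With a single ratio per group this likeness says nothing of a shared pattern beyond these 2 libraries.

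The start of the strand differed little between the stages. Reads at the mature start, which carry the seed ACAGTAC, numbered 80280 at the peak stage and 36172 at the late stage, or 73.6% (95% exact binomial interval 73.3% to 73.8%) and 75.6% (75.2% to 75.9%) of the miR-101-3p reads. Reads that start 1 nt earlier, which carry the seed TACAGTA, numbered 28535 and 11525, or 26.2% (25.9% to 26.4%) and 24.1% (23.7% to 24.5%). The share of the earlier start was thus 2.08 percentage points lower in late lactation, more than the counting error of these libraries. As levels, the earlier start was 1498 RPM at the peak stage and 1560 RPM at the late stage (log2 ratio 0.06, 0.03 to 0.09), and the mature start was 4216 and 4897 RPM (0.22, 0.20 to 0.23). A seed moved by 1 base was thus a regular part of miR-101-3p at both stages.

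The base in front of the mature start was G in 99.8% of the earlier reads at the peak stage and in 99.0% at the late stage. The letter A stood there in 25 reads at the peak stage and 73 at the late stage, which is 0.0876% and 0.633%. Later starts were rare. Reads that start 1 nt later, with the seed CAGTACT, numbered 246 and 89, or 12.9 and 12.1 RPM (log2 ratio -0.10, -0.47 to 0.26), a difference within counting error. Reads that start 2 nt later lie outside the rule and numbered 191 and 72. Reads that start 2 or more nt earlier numbered 50 and 92, which is 2.63 RPM (1.95 to 3.46) and 12.5 RPM (10.04 to 15.3).

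**Figure D2:**
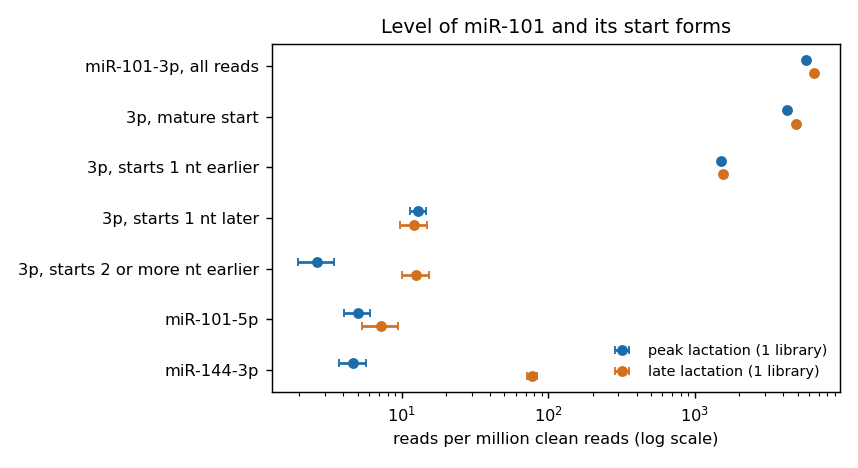
Level in RPM (log scale) of miR-101-3p, its start forms, miR-101-5p and miR-144-3p in peak lactation (blue) and late lactation (orange), 1 library each, with 95% exact Poisson intervals. The mature start and the start 1 nt earlier are the most abundant forms in both libraries, and the widest gap between the libraries is that of miR-144-3p, from 4.62 to 77.3 RPM.

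An earlier start of this size was uncommon among tag groups led by a tag of the same length. These groups were not sorted into microRNAs and fragments of other RNAs. Over the 115 groups with at least 100 reads in both libraries whose leading tag has 22 nt, the median share that starts 1 nt earlier was 0.151% at the peak stage and 1.17% at the late stage. Only 6 of these groups had a larger share than miR-101-3p at the peak stage and 10 at the late stage. Over all 433 groups with at least 100 reads in both libraries, the medians were 4.57% and 4.595%, with 35 and 51 groups above miR-101-3p. Among those above it at both stages was the group with the seed of miR-199a and miR-199b, led by a tag of 21 nt, at 34.4% and 24.7%. The share moved by more points than that of miR-101-3p in 185 of the 433 groups, whose median shift was 1.53 points in size.

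**Figure D3:**
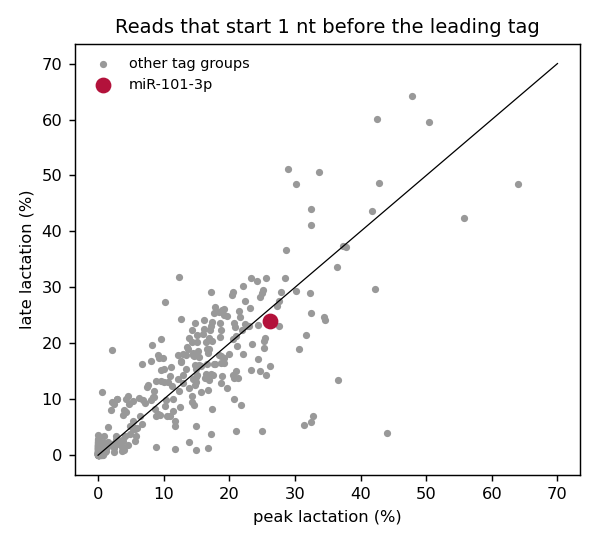
Share of reads that start 1 nt before the leading tag of the group, in percent, in peak lactation (horizontal axis) and late lactation (vertical axis), for 432 other groups with at least 100 reads in both libraries (grey) and miR-101-3p (red), with the line of equal shares. miR-101-3p lies close to that line at 26.2% and 24.1%.

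The end of the strand differed more than its start. Among reads at the mature start, those that end at nt 22 made up 66.3% at the peak stage (65.9% to 66.6%) and 49.1% at the late stage (48.5% to 49.6%). Those that end at nt 20 made up 9.94% (9.73% to 10.1%) and 28.3% (27.9% to 28.8%). Reads that end at nt 21 went from 11.9% to 15.5%, and those that end at nt 23 from 10.7% to 5.58%. The ends of the late library were therefore moved toward nt 20, a gain of 18.4 percentage points there, and the mean length fell from 21.8 to 21.3 nt.

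The single tags show the same. The tag that ends at nt 20 (tag 3) had 7845 reads at the peak stage and 10210 at the late stage, or 412 and 1382 RPM, a log2 ratio of 1.75 (1.70 to 1.79). It was number 4 among the members at the peak stage and number 1 at the late stage. The tag that ends at nt 22 with g (tag 1) had 1629 and 1206 RPM, a log2 ratio of -0.43 (-0.47 to -0.40), and it went from number 1 to number 2. The tag of the same sequence that ends at nt 21 (tag 5) had a ratio between theirs, with 399 and 666 RPM and a log2 ratio of 0.74 (0.69 to 0.79). The direction of miR-101-3p between the stages thus depended on which single tag was read, although the sum moved little.

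Reads that start 1 nt earlier mostly ended at nt 20 at both stages. That end held 57.2% of them at the peak stage (56.6% to 57.8%) and 65.9% at the late stage (65.0% to 66.8%), and tag 2 carried it with 852 and 1019 RPM (log2 ratio 0.26, 0.22 to 0.30). The shares that end at nt 18 and nt 19 fell from 5.09% to 1.31% and from 8.55% to 3.69%, and the share at nt 21 was 22.7% and 23.05%. Their mean length was 21.2 nt at the peak stage and 21.3 nt at the late stage. The end at nt 20 was thus more frequent in late lactation with either start. The ends whose share fell most were nt 18 and nt 19 with the early start, and nt 22 and nt 23 with the mature start. With the early start the share at nt 22 was 6.08% (5.81% to 6.37%) at the peak stage and 5.49% (5.08% to 5.92%) at the late stage.

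**Figure D4:**
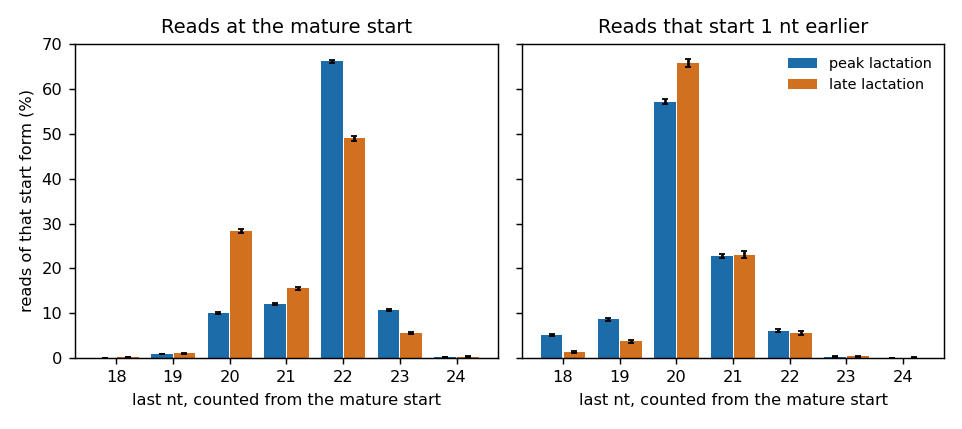
Share of reads, in percent, by the last nt, counted from the mature start, for reads at the mature start (left) and reads that start 1 nt earlier (right), in peak lactation (blue) and late lactation (orange), with 95% exact binomial intervals. At the mature start the bar at nt 20 rises from 9.94% to 28.3% and the bar at nt 22 falls from 66.3% to 49.1%, while reads that start earlier peak at nt 20 in both libraries.

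The same measure was taken in the other tag groups, because the reads of the late library were shorter on average. Their mean length was 22.3 nt at the peak stage and 21.7 nt at the late stage. Reads of 20 nt made up 12.4% of all clean reads in the peak library and 25.2% in the late library, and inserts under 18 nt made up 0.759% and 4.14% of the high-quality reads. The part of this difference between the libraries in the ends of miR-101-3p was not tested. Over the 115 groups led by a tag of 22 nt, the share of 20 nt reads at the start of the leading tag was higher in late lactation in 63 groups (54.8%), with a median change of 0.10 points. The middle 90% of these groups lay between -9.13 and 5.20 points. The gain of 18.4 points in miR-101-3p was exceeded by 1 of them, the group of tGAGATTAagcactgtagctct, with 649 and 806 reads and 18.2% and 43.1% of 20 nt reads. That tag differs by G7T, counted from its first base, from the abundant miR-143 tag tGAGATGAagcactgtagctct. The miR-143 group itself, led by a tag of 20 nt, held 45.5% of 20 nt reads at the peak stage and 63.8% at the late stage. Its level was 189037 RPM at the peak stage and 331206 RPM at the late stage, so it enters the 20 nt share of each library. In mean length, 69 of the 115 groups were shorter in late lactation, 13 of them by more than miR-101-3p. Over all 433 groups with at least 100 reads in both libraries, 297 (68.6%) were shorter, with a median change of -0.14 nt, and 119 others shortened at least as much as miR-101-3p. This comparison was chosen after the ends of miR-101-3p had been seen, and it has no replicate check.

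**Figure D5:**
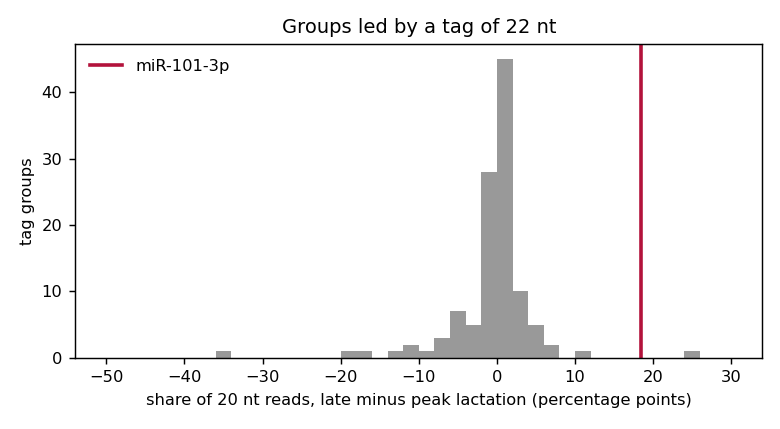
Number of groups led by a tag of 22 nt (vertical axis) by the change in their share of 20 nt reads, late minus peak lactation, in percentage points, with 114 other groups as grey bars 2 points wide and miR-101-3p as a red line. Most groups lie near 0, and miR-101-3p lies at 18.4 points with 1 group to its right.

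The letters at the end also differed. Of the reads at the mature start that reach nt 22, the base there was G in 61.6% at the peak stage and 53.7% at the late stage, and T in 25.0% and 23.9%. It was C in 8.10% and 12.03%, and A in 5.26% and 10.3%. At nt 21 the base was A in 87.6% and 87.2%, and C in 11.1% and 11.8%. Reads that start 1 nt earlier and reach nt 21 had C there in 27.4% at the peak stage and 9.84% at the late stage. Without the hairpin sequence, letters copied from the gene and letters added later cannot be told apart.

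Runs of an added letter were counted on reads at the mature start that follow the leading tag and then part from it. After nt 21, reads with T alone made up 15.8% of the mature-start reads at the peak stage (15.6% to 16.1%) and 10.8% at the late stage (10.5% to 11.1%). Those with A alone made up 3.43% and 4.88%. After nt 20, those with C alone made up 6.74% and 5.80%. Tag 4, which carries a T after nt 21, had 601 and 515 RPM (log2 ratio -0.22), and tag 8, which carries an A, had 140 and 228 RPM (0.71). Tag 7, with cc after nt 20, had 189 and 201 RPM (0.09, -0.001 to 0.17). Tags 9 and 10, which reach nt 23, were lower in late lactation, with log2 ratios of -0.74 (-0.85 to -0.63) and -0.61 (-0.72 to -0.49). Tag 6, the early start that ends at nt 21, had 221 and 306 RPM (0.47).

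Over the 26175 single tags of the series with at least 1 RPM in a library, 30.7% were at least 2-fold higher and 40.1% at least 2-fold lower in late lactation. Of the 68 members above this limit, 19 were at least 2-fold higher, 15 at least 2-fold lower and 34 within 2-fold, with a median log2 ratio of 0.17. Among the members with many reads in both libraries, tACAGTACtgtgataactgaatt, which ends at nt 23, fell from 65.1 to 15.03 RPM, to 0.231 of its level. Members found in 1 library only were few above this limit, with 3 in late lactation and tACAGTACtgtgataactgaagg with 33 reads (1.73 RPM) in peak lactation.

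Most of the 563 members were rare. They included 157 tags found in both libraries, and these held 99.6% of the miR-101-3p reads at the peak stage and 99.4% at the late stage. The 5 leading members held 67.9% and 73.9%. Members with 1 read numbered 186 of 390 at the peak stage and 160 of 330 at the late stage. At the depth of the late library the peak library would be expected to hold 244 members, fewer than the 330 found. Members ranged from 18 to 44 nt, and the 76 longer than 30 nt held 64 and 19 reads.

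Tags with 1 substitution in nt 2 to 17 were counted apart. They numbered 547 and held 1347 reads at the peak stage and 430 at the late stage, which is 1.23 and 0.898 per 100 exact reads. The most frequent was A13C, counted from the mature start, with 274 and 84 reads, or 0.251 and 0.175 per 100 exact reads, against a median of 0.0128 and 0.0104 over the 48 kinds found. C17A had 181 and 13 reads. Read errors and true variants were not told apart.

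The other strand of a miR-101 hairpin, miR-101-5p, was found by the seed AGTTATC alone and was rare. It held 95 reads in peak lactation, or 4.99 RPM (4.04 to 6.10), and 53 reads in late lactation, or 7.18 RPM (5.38 to 9.39), a log2 ratio of 0.52 (0.01 to 1.02). There were 1149 reads of the 3p strand for each read with this 5p seed at the peak stage and 903 at the late stage. The 3p count would pool all hairpins that share the 3p strand, while the 5p count rests on that seed alone. Whether hairpins with another 5p strand add to the 3p count was not tested, so these ratios are not those of a single hairpin. The most abundant 5p tags are shown with capitals for the stretch that is the perfect reverse complement of part of 3p tag 1, a relation that the seed search did not use in full.
5p tag 1: TCAGTTATCACAGTgctgatg
5p tag 2: TCAGTTATCACAGTgctgatgc
5p tag 3: CAGTTATCACAGTgctgatgc

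These 5p tags had 27 and 19 reads, 30 and 15 reads, and 16 and 8 reads in peak and late lactation. The complementary stretch was 14 nt in the first pair and 13 nt in the last. The start with 1 more t in front was the usual one, with 67.4% of the 5p reads at the peak stage (57.0% to 76.6%) and 77.4% at the late stage (63.8% to 87.7%). At 53 to 95 reads a difference between these shares was not detectable.

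miR-144-3p, a red blood cell microRNA, has a seed that differs from that of miR-101-3p in its last base. Its leading tag was tACAGTATagatgatgtactct, and its level was 88 reads (4.62 RPM, 3.71 to 5.69) at the peak stage and 571 reads (77.3 RPM, 71.1 to 83.9) at the late stage, a log2 ratio of 4.06 (3.74 to 4.41). Even in late lactation it stayed far below miR-101-3p.

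Most markers of the cell types of the gland, each found by its seed, differed more between the libraries than miR-101-3p, which was nearly level. As background to the counts below, 31.6% of all groups of at least 1 RPM were at least 2-fold higher and 29.1% at least 2-fold lower. Of the 3 epithelial groups found by their seeds, 1 was at least 2-fold higher and 1 at least 2-fold lower in late lactation. The group led by tAATACTGccgggtaatgatgga, with the seed of miR-200b, miR-200c and miR-429, went from 24151 to 11691 RPM (log2 ratio -1.05). The group led by tAACACTGtctggtaaagatggc, with the seed of miR-141 and miR-200a, went from 2452 to 4807 RPM (0.97). miR-205 went from 253 to 673 RPM (1.41), and the sum of these 3 groups was 26856 and 17171 RPM. Groups with the same seeds but other leading tags were not in this sum. Among them, that of tAATACTGcctggtaatgatga had 3322 and 3298 RPM (-0.01) and that of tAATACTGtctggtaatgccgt 266 and 126 RPM (-1.08). That of tAACACTGtctggtaacgatgtt had 1299 and 1074 RPM (-0.27). Of 4 smooth muscle and fibroblast groups, 2 were at least 2-fold higher, and the sum of the 4, most of it miR-143, was 190196 and 333942 RPM. These 2 were miR-145, from 158 to 1528 RPM (3.28), and miR-214, from 13.2 to 325 RPM (4.63). miR-143 had a log2 ratio of 0.81, and the group with the seed of miR-199a and miR-199b went from 989 to 883 RPM (-0.16). Of 3 red blood cell groups, 2 were at least 2-fold higher (sum 1888 and 3285 RPM), and of 4 white blood cell groups 3 were (sum 1198 and 1545 RPM). The remaining group of each set was lower in late lactation. For red blood cells it was miR-486, from 422 to 277 RPM (-0.61), while miR-451 was just past 2-fold, from 1461 to 2930 RPM (1.004). For white blood cells it was miR-155, the largest part of that sum, from 951 to 706 RPM (-0.43). The endothelial miR-126 went from 12701 to 6126 RPM (-1.05). No marker was at 0 in either library, and the part of cell make-up in the values of miR-101 was not tested. The late library had also lost 14.03% of its high-quality reads to 5′ adaptor contaminants, against 0.0494% in the peak library, and the part of this in the values of miR-101 was not tested.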

How the data were processed

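The deposited counts are the reads of each distinct tag in 1 library per stage, and the deposited filtering records hold counts of reads left at each step. The authors ligated adaptors to RNA of 18 to 30 nt, amplified with 15 PCR cycles, sequenced on an Illumina 1G Genome Analyzer, removed low-quality, adaptor-only, poly(A) and short reads, and collapsed identical reads. The sources used here do not give versions of these tools. The authors mapped reads to the sheep genome and matched miRBase, and that output was not used here.

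Counts were scaled to 1000000 clean reads of their library (RPM), with 0 set to 0.01 RPM in ratios, as in the methods of the study. The P formula of those methods was not run, since it knows counting error alone. Tags were assigned to miR-101-3p when they contained nt 2 to 17 of the most abundant tag with the known seed at nt 2 to 8. Groups of all tags were formed in the same way from the most abundant tag down, in place of a reference list of microRNAs, and a tag that could join more than 1 group went to the more abundant one, which left 109078 and 47877 reads for miR-101-3p. Intervals are 95% exact Poisson for levels, and exact binomial (Clopper-Pearson) for shares and for ratios given the sum of the counts. Intervals, 2-fold counts and grouping were tested on simulated data.

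The members, lists and limits were chosen with earlier results of these data known. Named were start and end forms of miR-101 of at least 1% of its reads in a library, its other strand, miR-144, the 5 groups nearest in ratio and the 2 groups above and below in level, as well as the 10 leading members. The substitutions, added letters and 20 nt shares were chosen after their values were seen. Alternatives were other matches, totals, filters and a pseudocount of 1 read, with scaling by edgeR 4.0.16 (TMM) or DESeq2 1.42.0 (median ratio) in R 4.3.3. Other steps used Python 3.11.15, numpy 2.4.6, scipy 1.17.1 and matplotlib 3.10.9.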

Additional observations from a re-analysis of the deposited data

How the results depend on the processing

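The log2 ratio of miR-101-3p (0.18) reversed to -0.43 when only the tag identical to the leading tag was counted, and the cause was not tested. It was 0.21 for tags that begin with nt 1 to 20, 0.26 when the 10 most abundant tags of each library were left out of the totals and 0.15 with median-ratio factors, and 0.22 for tags with the seed at nt 2 to 8, which was chosen after seeing the data. The other 6 of 11 alternatives left it within its interval, from 0.17 to 0.19, with TMM factors, totals of 18 to 30 nt, 1 mismatch, nt 2 to 14, at least 2 reads per tag and the totals of groups of at least 100 RPM. Neither alternative moved the log2 ratio of miR-101-5p or the share of the earlier start out of its interval. The gain of 18.4 points at nt 20 was 8.68 points for reads that start 1 nt earlier and 25.1 points for tags that match the leading tag only, both chosen after seeing the data. Tags past 2-fold numbered 18531, with 3383 at a filter of 10 RPM and 633717 without a filter. Groups past 2-fold numbered 2072, with 1048 at 10 RPM and 263 at 100 RPM, where fewer are tested. Matches to hairpins, totals of reference microRNAs and groups without a filter were not run, since no hairpin or reference list was used and groups start at 1 RPM. No paired analysis was possible because each stage has 1 pooled library, and for that reason no library could be left out. The 95 and 53 reads of miR-101-5p limit what can be said of that strand.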
